A study of Mus musculus with 15 samples.

Results

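Head-to-head gene pairs are neighbours on opposite strands that are transcribed away from each other out of a shared stretch of DNA, so that 1 promoter region serves a pair of genes. Here a pair was taken from GENCODE M21 on GRCm38 (mm10) as a protein-coding gene on the minus strand whose outermost transcription start site (TSS) lay 0 to 1000 bp to the left of the outermost TSS of a protein-coding gene on the plus strand. On chromosomes 1 to 19 and X this rule, which uses no ChIP signal, found 755 pairs. They held 1489 of 21755 protein-coding genes (6.84%), and 21 of these genes belonged to 2 or more pairs. Each pair was given a region from 1 kb inside the minus gene to 1 kb inside the plus gene, and regions that overlapped left 733 separate stretches. Inside a gene means here up to 1 kb downstream of its TSS, also where the gene itself is shorter. The TSSs of a pair were a median of 129 bp apart, with quartiles of 66.5 and 240 bp and a range of 0 to 987 bp.

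Such bidirectional promoters are common among mammalian housekeeping genes, including those for DNA repair, mitochondrial proteins and RNA processing, and they are usually CpG islands without a TATA box. H3K4me3, trimethylation of lysine 4 of histone H3, marks nucleosomes at active and poised promoters and is highest just downstream of the TSS, next to a stretch depleted of nucleosomes. At a promoter that fires both ways, the marked nucleosomes can lie inside either gene, with the depleted stretch between them.

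The mark was profiled by native ChIP-seq on nuclei of microdissected amygdala, a brain region of fear and social behaviour, from adult male F1 129xB6 mice, which are hybrids of 129S1/SvImJ and C57BL/6J. The series compared WT mice with Kmt2a-HET mice, which carry 1 constitutive null allele of the H3K4 methyltransferase gene Kmt2a, Kdm5c-KO mice, which lack the X-linked H3K4 demethylase gene Kdm5c, and DM mice with both alleles. Of its 15 samples, 11 were H3K4me3 libraries and 4 were inputs. Only the WT peak list was analysed here, and the authors called it on 2 WT mice together, so no value below has a spread between animals, no test between conditions was possible, and intervals cover counting error only.

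Each of the 24162 entries of the list is a 1-bp summit, the highest point of a peak, with a score read as −log10 of the MACS2 q-value. Scores ran from 1.18 to 342, and the 24132 summits on chromosomes 1 to 19 and X were used. Read depth behind each score is unknown. Neighbouring summits were never closer than 198 bp and only 0.747% were under 500 bp apart, so a missing second summit does not show that the mark is absent on that side. The tissue label was checked against marker genes: 8 of 8 neuronal, 4 of 4 astrocyte and 4 of 4 oligodendrocyte markers had a summit within 1 kb of the TSS, and 0 of 6 markers of other tissues did, so the list mixes neurons and glia.

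The DNA that separates the TSSs of 10 pairs is shown first, because the summits described below lay almost never on it but on its flanks. Most pairs had a summit on 1 flank only, which does not show that the mark is absent on the other. Each sequence is the plus strand of GRCm38 read 5′ to 3′ from the base after the minus gene's TSS to the base before the plus gene's TSS. Capitals mark exact matches, on either strand, to the motifs counted further down: CCAAT (the CCAAT box), GGGCGG (the GC box bound by Sp1), CCGGAAG (the core of ETS factor sites), GCATGCGC (part of the NRF1 site), CTCGCGAG, TGACGTCA (the cAMP response element), TATAAA (the TATA box) and GATGGCGG (part of the YY1 site). A match is a run of letters and not evidence of binding.

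The first set holds pairs with scores from 183.5 to 333.0, a range that covers most marked pairs. The first of them had the highest score of all pairs.
Arsk/Ttc37, chr13:76098661-76098733, plus strand: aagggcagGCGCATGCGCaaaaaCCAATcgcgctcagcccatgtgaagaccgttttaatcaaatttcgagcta
Hadha/Hadhb, chr5:30155163-30155247, plus strand: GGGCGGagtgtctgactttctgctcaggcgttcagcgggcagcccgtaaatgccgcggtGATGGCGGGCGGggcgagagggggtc
Mrps12/Sars2, chr7:28741821-28741991, plus strand: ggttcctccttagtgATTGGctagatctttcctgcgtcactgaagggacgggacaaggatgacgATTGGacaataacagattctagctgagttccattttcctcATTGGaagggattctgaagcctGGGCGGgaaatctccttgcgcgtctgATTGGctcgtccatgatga
Brca1/Nbr1, chr11:101551956-101552148, plus strand: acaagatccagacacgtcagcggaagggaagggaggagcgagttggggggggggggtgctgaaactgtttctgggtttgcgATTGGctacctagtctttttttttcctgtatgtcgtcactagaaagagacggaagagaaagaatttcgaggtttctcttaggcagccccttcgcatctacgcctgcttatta
Wrap53/Trp53, chr11:69580256-69580358, plus strand: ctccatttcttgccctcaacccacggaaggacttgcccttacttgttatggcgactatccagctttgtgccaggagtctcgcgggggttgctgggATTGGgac
Psmb1/Tbp, chr17:15499752-15499887, plus strand: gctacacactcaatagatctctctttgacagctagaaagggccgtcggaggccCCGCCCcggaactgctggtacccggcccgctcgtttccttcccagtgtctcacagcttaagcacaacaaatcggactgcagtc

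The second set holds a collagen pair and a histone pair with weak summits and an interferon-induced pair poor in CpG. It also holds a CpG-rich pair, Ddx5/Cep95, with no summit in its region, although a summit of 317.4 lay 883 bp beyond it.
Col4a4/Col4a3, chr1:82586850-82586920, plus strand: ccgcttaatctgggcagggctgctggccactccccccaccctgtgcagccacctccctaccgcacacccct
Hist1h2bf/Hist1h2ad, chr13:23574197-23574380, plus strand: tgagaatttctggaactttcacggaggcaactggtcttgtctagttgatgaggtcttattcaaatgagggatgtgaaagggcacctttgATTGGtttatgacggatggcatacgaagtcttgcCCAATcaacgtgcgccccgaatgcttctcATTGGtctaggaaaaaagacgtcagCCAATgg
Ifit1bl2/Ifit1, chr19:34640744-34640870, plus strand: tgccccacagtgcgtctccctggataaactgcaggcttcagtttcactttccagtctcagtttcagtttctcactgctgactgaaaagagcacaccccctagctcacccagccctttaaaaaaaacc
Ddx5/Cep95, chr11:106789186-106789251, plus strand: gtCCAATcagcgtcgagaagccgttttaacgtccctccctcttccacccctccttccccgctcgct

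Across the spans of the first set, CCAAT or its complement ATTGG appeared in Arsk/Ttc37, Mrps12/Sars2, Brca1/Nbr1 and Wrap53/Trp53, and the GC box in Hadha/Hadhb, Mrps12/Sars2 and Psmb1/Tbp. The histone span also held 4 CCAAT matches although its summits were weak, so the letters alone did not follow the score.

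Nearly all pairs carried the mark. A WT summit lay in 710 of 755 regions (94.0%, 95% Wilson interval 92.1 to 95.5), against 58.6% of all coding promoters, taken as 1 kb either side of the outermost TSS. Of the 20266 coding promoters that were in no such pair, 11385 were marked (56.2%, 55.5 to 56.9), which is 37.9 percentage points lower (Newcombe interval of the difference 35.8 to 39.5). The region of a pair is wider than a single promoter by the distance between its TSSs, but 1 kb either side of the midpoint, a window of equal width, was marked in 93.1%. Taken gene by gene, 1373 of the 1489 genes of pairs (92.2%) had a summit within 1 kb of their own TSS.

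A second comparison set was closer in architecture: 771 of the other coding promoters had a non-coding gene head to head within 1000 bp. Of these, 631 were marked (81.8%, 79.0 to 84.4), which placed them between the coding pairs (12.2 points lower, 9.0 to 15.4) and the remaining 19495 coding promoters (55.2%).

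Marked pairs also scored higher. Taking the highest summit of each, scores of marked pairs centred on 225.8 (median, with quartiles of 196.2 and 248.3). Marked promoters outside pairs centred on 188.4 (114.7 and 225.8), and those with a non-coding neighbour on 202.1. In 69.5% of all comparisons of a marked pair with a marked promoter outside pairs, the pair scored higher, and in 63.5% against the promoters with a non-coding neighbour. The sets differed at both ends of the score. Only 19 marked pairs (2.68%) scored below 50, whereas 13.2% of the other marked promoters did, and 516 pairs (72.7%) reached 200, whereas 43.3% of the others did. Of all 24132 summits, 750 (3.11%) lay in these 755 regions. Of the 1539 scoring 250 or more, 160 (10.4%) did, and of the 4595 below 10, 13 (0.283%).

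**Figure D1:**
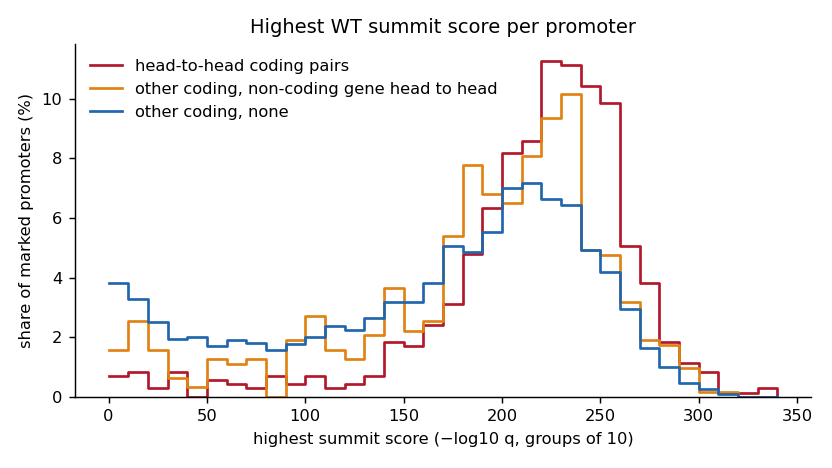
Distribution of the highest WT summit score (−log10 q, in groups of 10) among marked promoters, as a share of each set in percent: 710 head-to-head coding pairs (red), 631 other coding promoters with a non-coding gene head to head (orange) and the other 10754 marked coding promoters (blue). The red line peaks between 220 and 260 and lies below the blue line at every score under 180.

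Among pairs, the highest score belonged to Arsk/Ttc37 (333.0), a lysosomal sulfatase and a subunit of the SKI complex of RNA decay. The zinc finger gene Zfp169 and its unnamed neighbour A830005F24Rik (331.1) came next, then Ndufa4/Phf14 (323.9), a respiratory chain subunit and a chromatin reader. Vipas39/Ahsa1 (319.5), a vesicle trafficking factor and an activator of the chaperone Hsp90, and Tgfbrap1/AI597479 (307.6) followed. Even the last of these 5 scored above 99.9% of the summits in the list, and each had a single summit, between 162 and 238 bp inside 1 of its genes.

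CpG content differed between the sets. In the 1 kb around the midpoint, the ratio of observed to expected CpG had a median of 0.773 in pairs (quartiles 0.669 and 0.864), and around the TSS of other coding genes 0.518 (0.207 and 0.754). Median G+C was 60.1% and 54.3%. When all promoters were split into 10 groups of equal size by this ratio, 91.0% of pairs and 48.5% of the others fell into the 5 highest. Within those groups the shares were much closer: in the group numbered 7, all 104 pairs and 91.0% of the others were marked, and in the highest group 96.0% and 93%. Weighting the other promoters to the CpG content of the pairs raised their share from 56.2% to 87.2%, leaving a difference of 6.80 points out of 37.9. The score moved less with this weighting: the weighted median of the others was 198.4, and pairs scored higher in 66.1% of comparisons.

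**Figure D2:**
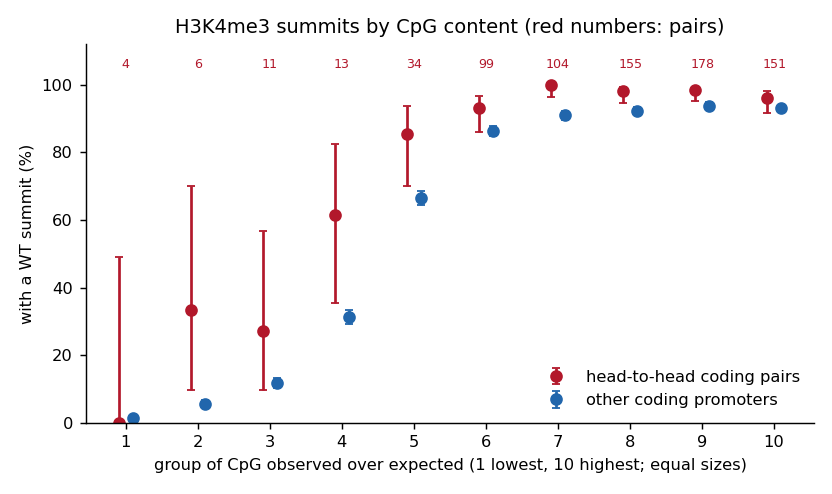
Share of promoters with a WT summit (percent, points) in 10 groups of equal size by CpG observed over expected, from the poorest (1) to the richest (10), for head-to-head coding pairs (red) and other coding promoters (blue). Bars are 95% Wilson intervals, and the red numbers give the pairs per group; from group 6 upwards 92.9% or more of pairs were marked.

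Among the pairs themselves, the marked share was higher where CpG content was higher, but the sets overlapped. Of the 45 unmarked pairs, 20 had a ratio of 0.5 or more. Of the 703 pairs with a ratio of 0.5 or more, 97.2% were marked, and of the 52 below it, 27 were (51.9%), with a median score of 151.3. The 5 CpG-poorest marked pairs covered a wide range of scores. The interferon-induced Ifit1bl2/Ifit1 pair, with a ratio of 0.118, scored 11.7, and Kirrel2/Nphs1, which encode nephrin of the kidney filter and a related adhesion protein, scored 12.7 at a ratio of 0.241. Pinlyp/Xrcc1, of which Xrcc1 is a scaffold of DNA single-strand break repair, scored 50.6. Nt5c3b/Klhl10 and Haghl/Ccdc78 had ratios of only 0.172 and 0.217 and scored 170.7 and 213.9. Their summits lay 920 and 423 bp inside Nt5c3b and Haghl. Those of the lower-scoring Kirrel2/Nphs1 and Pinlyp/Xrcc1 lay 701 and 511 bp inside Kirrel2 and Xrcc1, and that of Ifit1bl2/Ifit1 119 bp inside Ifit1.

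Summits were rarely on the DNA between the TSSs. The highest summit lay inside the minus gene in 357 marked pairs (50.3%), inside the plus gene in 344 (48.5%) and between the TSSs in 9 (1.27%, 0.668 to 2.39), although the spans between made up 8.74% of the length of the regions. Among the 64 marked pairs more than 500 bp apart, where the span was 25.9% of the length, 6 summits (9.38%, 4.37 to 19.0) lay in it. Among the 298 marked pairs up to 100 bp apart there were none, where the span was 2.75% of the length.

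**Figure D3:**
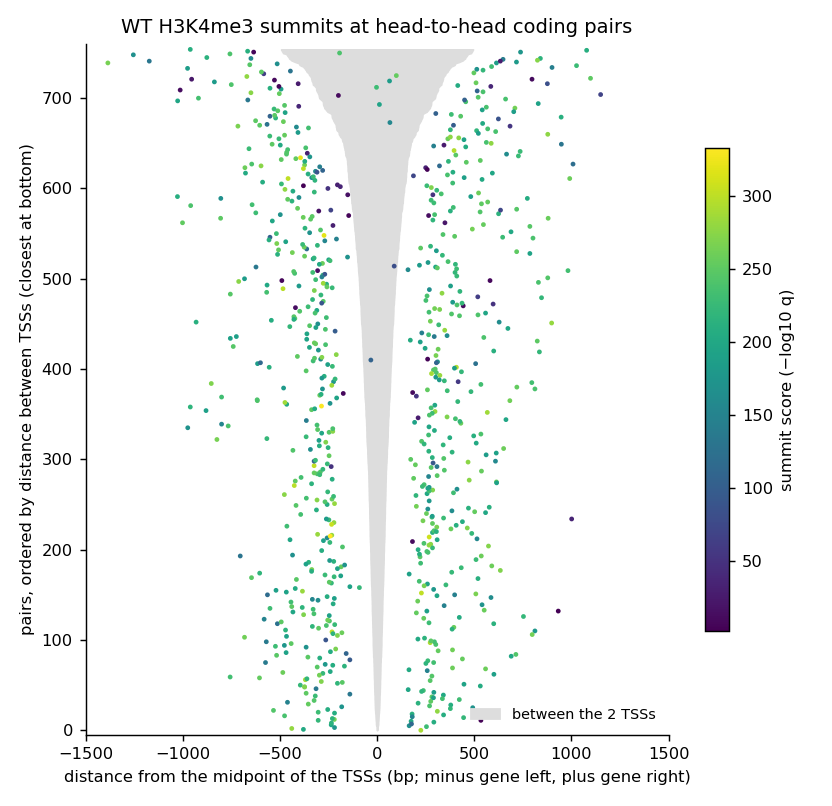
Position of every WT summit (points, coloured by score, −log10 q) relative to the midpoint between the TSSs (bp) in the 755 pairs, ordered from the closest TSSs (bottom) to the most distant (top), with the minus gene on the left. The grey wedge is the span between the TSSs; it is almost empty, and 2 bands of summits follow its edges from inside the genes.

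The exceptions were mostly wide pairs. Pdcd10/Serpini1, a kinase adaptor mutated in cerebral cavernous malformation and the neuronal serpin neuroserpin, had its summit of 253.4 between TSSs 691 bp apart. Gart/Son, a purine synthesis enzyme and a splicing cofactor, scored 194.3 in a span of 554 bp, and Smim7/Tmem38a scored 238.9 in 967 bp. Tmem126b/Dlg2, of which Dlg2 encodes a postsynaptic scaffold, scored 184.0 in 671 bp. Ankrd17/Gm9958 scored 229.4, Spaca9/Ak8 155.9 and Amdhd1/Ccdc38 11.1. In only 2 of the 9 was the span under 200 bp: the retinal disc gene Rom1 with Eml3 (196 bp, 81.8) and Gm9922/Lmo7 (143 bp, 106.2).

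Inside a gene, the highest summit lay a median of 270 bp downstream of the TSS (quartiles 210 and 405), and 84.7% were within 500 bp. At other coding promoters whose highest summit was downstream, the median was 343 bp (213 and 548) and 69.9% were within 500 bp. Few pairs had a summit far into the gene: 34 of 701 (4.85%) were more than 700 bp downstream, against 12.8% outside pairs. The near edge was similar, with 7.42% and 9.57% under 150 bp. Outside pairs, 11.2% of highest summits were upstream of the TSS, and this share was 20.1% where a non-coding gene lay head to head.

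**Figure D4:**
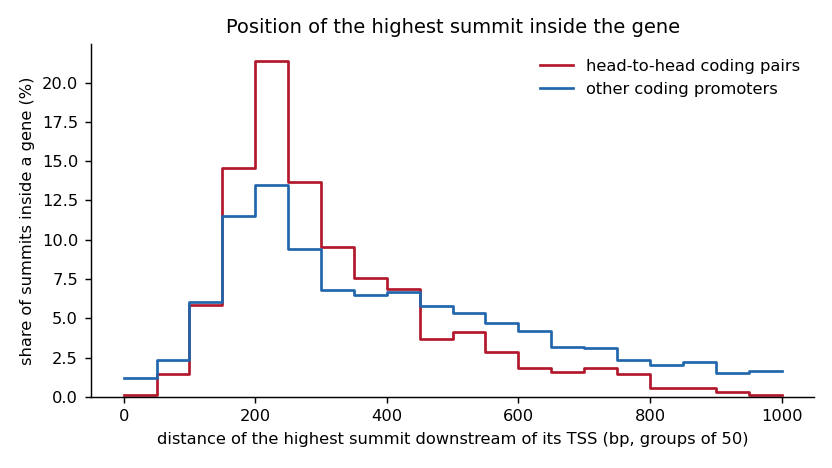
Distance of the highest WT summit downstream of its TSS (bp, in groups of 50) as a share of the summits that lay inside a gene (percent), for 701 head-to-head coding pairs (red) and 10110 other coding promoters (blue). The red line is higher and narrower around its median of 270 bp, and the blue line has the longer tail.

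Most pairs had a summit in 1 gene only: 331 in the minus gene and 309 in the plus gene, together 90.1% of marked pairs. What the summit side had in common was described over the 639 pairs with exactly 1 summit, inside a gene. Pairs whose genes tied on a property were left out of its share. It was the longer gene in 50.2% (46.4 to 54.1), close to an even split. It was the gene with more annotated transcript starts in 55.5% of the 569 pairs that differed (51.4 to 59.6), the side with more CpG in the first 500 bases of the gene in 58.2% of 625 (54.3 to 62.0), and the side with the higher G+C there in 64.5% of 634 (60.7 to 68.1). The median number of CpG dinucleotides in these 500 bases was 33 on the summit side and 28 on the other. Where 1 gene of the pair had a predicted or unnamed symbol of the form Gm or Rik, the summit was in that gene in 23 of 62 pairs (37.1%, 26.2 to 49.5).

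A second summit was found in 62 pairs (8.21%, 6.46 to 10.4), against 4.4% of all coding promoters and 4.21% of those outside pairs, a difference of 4.0 points (2.23 to 6.2). In the window of equal width around the midpoint the share was 7.42%. Counted over marked promoters only, 8.73% of pairs and 7.49% of the promoters outside pairs had 2 or more. Promoters with a non-coding neighbour had 2 or more in 9.60%, and the difference to the pairs (−1.39 points, −4.27 to 1.49) was within the counting error. The share rose with the distance between TSSs, from 3.51% at up to 100 bp to 8.25% at up to 200 bp, 15.0% at up to 300 bp and 16.7% at up to 500 bp, each counted from the step before, and was 11.4% beyond 500 bp. The region also widens with this distance, and no share by step was taken in windows of equal width. The share with any summit moved little over these steps (95.2%, 94.2%, 92.0%, 93.9% and 91.4%), as did the median score (225.7, 225.2, 226.6, 234.9 and 210.5).

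In 61 of the 62 pairs the summits were inside different genes, which is 8.59% of marked pairs (6.75 to 10.9). Marked coding promoters outside pairs had summits on both sides of the TSS in 6.63% (6.19 to 7.10), and those with a non-coding gene head to head in 10.6% (8.45 to 13.3). Cib1/Gdpgp1 was the exception, with scores of 187.2 and 2.1 both inside Gdpgp1. The 2 summits were a median of 972 bp apart (quartiles 786.5 and 1286.5), their lower score had a median of 116.7 and their higher 212.8, and in 37 pairs both reached 100. Pairs with a single summit had a median score of 226.6, and their TSSs were closer (median 117 bp against 241.5 bp).

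Some of these pairs were almost even. Tada2a/Acaca, an adaptor of histone acetyltransferases and the acetyl-CoA carboxylase of fatty acid synthesis, scored 198.4 and 200.2, and Safb2/Safb, paralogous scaffold attachment factors that diverge from 1 promoter, scored 250.2 and 257.2. The heparan sulfate sulfotransferase gene Hs2st1 scored 244.4 and its partner Selenof 261.1. Cdk5, the cyclin-dependent kinase of postmitotic neurons, scored 205.9 and the anion exchanger gene Slc4a2 219.0. The pair with the highest second score was Fbh1/Ankrd16, a DNA helicase with an ankyrin repeat gene, at 301.4 and 259.3.

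Others were lopsided: in 14 pairs the lower score was at most 24.3% of the higher. Brca1, the homologous recombination gene, scored 13.2 and its neighbour Nbr1, an autophagy receptor, 232.3. Brd8/Kif20a, a chromatin reader with a kinesin of cell division, scored 220.9 and 5.31, and Ccdc146/Fam185a 4.26 and 227.5. In Chtf18/Rpusd1 the sister chromatid cohesion gene Chtf18 scored 16.7 and Rpusd1 212.1.

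**Figure D5:**
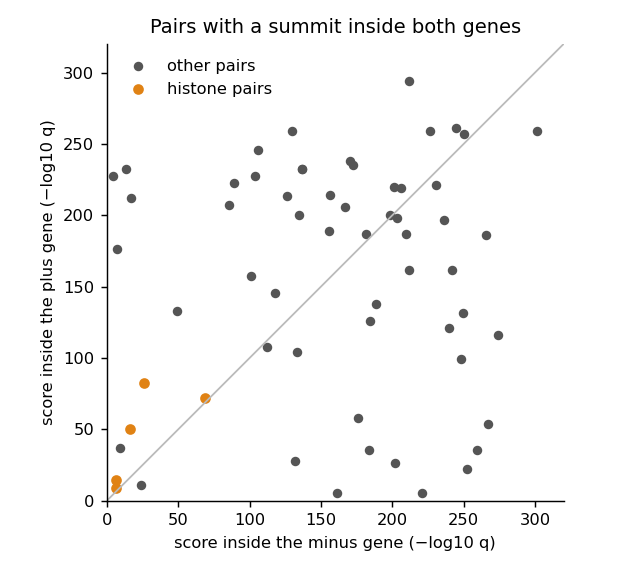
Scores (−log10 q) of the summit inside the minus gene (horizontal) and the plus gene (vertical) in the 61 pairs with a summit inside both, with histone pairs in orange and the diagonal in grey. Points lie both along the diagonal and near the axes, and the histone pairs sit below 100 on both axes.

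The 5 pairs at least 500 bp apart with a summit inside both genes and none between, taken by the highest lower score, were of both kinds. Dedd2/Zfp526 (810 bp apart) scored 265.5 and 186.5, and Urod/Hectd3, a haem synthesis enzyme with a ubiquitin ligase (904 bp), 156.2 and 214.5. Rnf5/Agpat1 (572 bp) scored 133.1 and 103.9. P3h4/Fkbp10, both of collagen folding (861 bp), scored 131.6 and 28.2, and Hist1h2bh/Hist1h3f (660 bp) 26.1 and 82.7.

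At the edge of the rule itself, the widest pairs admitted were Zfyve26/Rad51b (978 bp, 211.5), Asphd1/Sez6l2 (981 bp, 209.6) and Btf3l4/Txndc12 (987 bp, 209.6). The closest left out were Serpina7/4930513O06Rik (1007 bp) and Gpr108/Trip10 (1009 bp), without a summit, and Sgsm2/Tsr1 (1011 bp, 203.7).

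A list of 24 bidirectional pairs or genes known from textbooks was looked up, and 12 met the rule. All 12 were marked, as were 94.0% of all pairs. Hadha/Hadhb, which encode both subunits of the mitochondrial trifunctional protein of fatty acid oxidation, scored 297.6 in Hadha with TSSs 86 bp apart. Emc3/Fancd2, of which Fancd2 is a central gene of the Fanconi anaemia repair pathway, scored 290.1 in Emc3 (30 bp). Atm/Npat, the kinase that signals DNA breaks and an activator of histone genes, scored 249.5 in Npat (307 bp), and Mrps12/Sars2, both of mitochondrial translation, 245.7 in Mrps12 (172 bp). Mcm4/Prkdc, a subunit of the replicative helicase and the DNA-dependent protein kinase, scored 228.5 in Prkdc (466 bp). Wrap53/Trp53, the latter encoding p53, scored 202.1 in Trp53 (104 bp). Psmb1/Tbp, a proteasome subunit and the TATA-binding protein, scored 183.5 in Tbp (137 bp).

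Col4a4/Col4a3, which encode basement membrane collagens of kidney and lung, stood apart at 12.2, 146 bp inside Col4a3. Brca1/Nbr1, Pdcd10/Serpini1 and Gart/Son, described above, were also among the 12. Of the entries that did not meet the rule, 8 were set aside because their outermost annotated starts overlap, among them the chaperonin pair Hspd1/Hspe1 (by 111 bp), Ppat/Paics of purine synthesis (271 bp) and Col4a1/Col4a2 (21 bp). Col4a6/Col4a5 was too wide at 1309 bp, and Brca2 and Fanca had no coding partner under the rule.

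Gene groups differed in how often they were in pairs and in score. The groups were set by the start of the gene symbol. Over all coding genes 6.84% were in pairs, and 94.0% of all pairs were marked. Mitochondrial genes, which encode ribosomal proteins, respiratory chain subunits and import factors of the organelle, had 44 of 203 members in pairs (21.7%), and all 44 pairs were marked. Their median score of 240.9 lay above that of all marked pairs, and the group's promoters outside pairs were marked in 91.2% with a median of 224.7. Ndufa4/Phf14 was highest (323.9), followed by Wdr4/Ndufv3 (288.2), and the lowest were Mrpl54/Apba3 (133.9) and Pqbp1/Timm17b (152.6).

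Genes with symbols of DNA replication and repair were in pairs in 27 of 130 cases (20.8%). All 27 pairs were marked, against 94.0% over all pairs, with a median of 228.5. Outside pairs 89.3% were marked, with a median of 181.7. The Cdc symbols brought in Cdc26 and Cdc27 of the anaphase-promoting complex and the splicing factor gene Cdc40, which have other roles. The lowest were Pinlyp/Xrcc1 (50.6) and Rad51c/Tex14 (152.6), and Emc3/Fancd2 (290.1) and Orc3/Rars2 (263.4), the latter with a subunit of the origin recognition complex, were among the highest.

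RNA handling genes, for RNA polymerase subunits, helicases, splicing factors and the exosome, were in 33 pairs, of which 31 were marked (93.9%) with a median of 211.5. Outside pairs the share was 93.4% and the median 215.3, so this group did not show the gap seen over all promoters. Noa1/Polr2b (270.7) was highest and Dtl/Ints7 (133.1, with 49.2 in Dtl) lowest. The unmarked ones were Ddx25/Pus3, of which Ddx25 is a testis helicase, and Ddx5/Cep95, which had a summit 883 bp beyond its region.

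Proteasome and ubiquitin genes were in 13 pairs, all marked, from Psmd10/Atg4a (165.2) to Mrpl32/Psma2 (264.9), and one of them was the imprinted Peg3/Usp29 (198.3). Solute carriers were in 16 pairs, of which 15 were marked, led by Slc30a7/Extl2 (281.9). Slc27a5/Trim28, with the liver bile acid ligase Slc27a5, had no summit. The Zfp zinc finger genes were in 19 pairs, of which 17 were marked with a median of 229.8. Over all pairs the marked share was 94.0%. Outside pairs, promoters were marked in 78.5% for proteasome and ubiquitin genes, 63.0% for solute carriers and 80.9% for zinc fingers. The lists held 143, 371 and 397 genes, in the same order.

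Most of the next symbol groups were seldom in pairs, compared with 6.84% of all coding genes. The symbols do not cover every synaptic or tissue-restricted gene: Dlg2 and Nphs1, described above, are in pairs. Of 230 genes with symbols that start like those of ion channels, transmitter receptors and synaptic vesicle proteins, 3 (1.30%) were in pairs, all marked. They were the kainate receptor gene Grik5 with Zfp574 (209.7), Cfap52/Stx8 (263.0), and Scnm1/Lysmd1 (183.5). Scnm1 is a splicing factor despite its symbol, and Stx8 was listed by its symbol alone. Of 1505 olfactory, vomeronasal and taste receptor genes, 2 were in pairs, with broadly used partners: Nt5c3/Vmn1r4 (234.2) and Tas1r1/Nol9 (144.1). The same group outside pairs was marked at 3 of 1503 promoters. None of 113 keratin symbols and none of 66 defensin symbols were in a pair, and the only protocadherin, Pcdh12 with Rnf14, had no summit. The 2 pairs with a collagen symbol were Col4a4/Col4a3 and Polk/Col4a3bp (243.8), the second of which encodes a ceramide transfer protein and not a collagen.

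Pairs with a predicted or unnamed gene were marked less often than the rest, with a like score. Of 78 pairs with a Gm or Rik symbol, 67 were marked (85.9%) with a median of 228.5, and of the 677 pairs without one 95% were marked with a median of 225.8, whereas such genes outside pairs were marked in 23.5%.

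The replication-dependent histone genes were the weak group. They are transcribed in dividing cells in S phase and lie in clusters of near-identical head-to-head H2A and H2B genes. With 27 of 67 genes (40.3%) in 14 pairs they were the group most often paired, yet 11 pairs were marked with a median of only 62.5, and outside pairs 80.0% were marked with a median of 74.9. Bola1/Hist2h2ab and Hist2h2ac/Hist2h2be on chromosome 3 share 1 summit of 198.4. It lies 595 bp downstream of the TSS of Hist2h2ab, past the end of this 444-bp gene, and 420 bp inside Hist2h2ac. The 9 marked pairs on chromosome 13 reached at most 82.7. There Hist1h2bh/Hist1h3f (82.7), Hist1h2ak/Hist1h2bn (72.0) and Hist1h2ac/Hist1h2bc (71.7) were highest, and Hist1h2ah/Hist1h2bk (4.45), Hist1h2bf/Hist1h2ad (9.05) and Hist1h2an/Hist1h2bp (14.3) lowest. Second summits were common, in 5 of the 14. The authors kept only uniquely mapped reads, which removes reads from stretches shared by copies, and the part of this in the low scores was not tested.

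The lowest scores after the histones were those of Klc3/Ckm (9.05), a kinesin light chain with muscle creatine kinase, Stap2/Mpnd (9.42), and Tssk3/Fam229a (9.95), with a testis kinase.

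On chromosome X the scores were lower, with a median of 171.3 against 226.6 in pairs on autosomes. Of its 20 pairs, 16 were marked (80.0%, 58.4 to 91.9), against 94.4% of the 735 autosomal pairs. Single autosomes were as low in this share, with 8 of 10 pairs on chromosome 18 (80.0%) and 32 of 38 on chromosome 13 (84.2%). Idh3g/Ssr4 (232.3), Fam3a/Ikbkg (228.5) and Mospd2/Fancb (226.6) were the only ones at 200 or more, and none had a second summit. Outside pairs, X promoters were marked in 44.8% with a median of 159.8. Males carry a single X chromosome, and the part of copy number in the score was not tested.

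The 45 unmarked pairs were of several kinds. In 16 a summit lay within 1 kb beyond the edge of the region, in 12 of them within 500 bp, and 14 of the 16 summits scored 100 or more. The pairs named next were picked among the unmarked for high CpG content, so they do not describe the CpG content of the 16. For Ddx5/Cep95, of which Ddx5 is a widely expressed RNA helicase, a summit of 317.4 lay 883 bp beyond the region, and for Atp6v1a/Naa50, a proton pump subunit and an acetyltransferase, one of 278.4 lay 62 bp beyond it. Pusl1/Acap3 missed its summit of 236.9 by 2 bp. Sart3/Iscu (221.8, 296 bp), Zfp91/Lpxn (219.0, 427 bp) and Tshz1/Zadh2 (160.0, 686 bp) were alike. These loci had a summit nearby, outside the region drawn for the pair.

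Another 17 had no summit within 10 kb. They included Duox2/Duoxa2, the thyroid oxidase and its maturation factor, Smyd1/Cd8b1, of muscle and T cells, and Pecam1/Milr1, of endothelium and mast cells. Of the unmarked pairs, 3 were histone pairs, among them Hist1h2bq/Hist1h2ao and Hist1h2ap/Hist1h2br, and 11 had a Gm or Rik symbol. The median CpG ratio of the unmarked pairs was 0.433, against 0.780 in the marked.

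The motifs shown in capitals above were counted from 250 bases before to 50 after the outermost TSS, in the 1489 genes of pairs and in the 20266 others. These windows of a pair's 2 genes overlap, so partners often share a match, and a G+C-rich motif is more frequent where G+C is high. The GC box GGGCGG was in 69.0% of windows of pairs, against 41.5% of others and 43.4% of all. CCGGAAG was in 27.3% against 9.66% (10.9% of all), a difference of 17.6 points, and CCAAT in 43.9% against 38.5% (38.9% of all). The CCAAT excess depended on the window: from 500 before to 100 after the TSS it was in 57.6% against 58.1%, a difference of −0.53 points (−3.15 to 2.05). The rarer motifs GATGGCGG (6.51% against 1.76%, 2.08% of all), GCATGCGC (6.72% against 3.16%, 3.40% of all), TGACGTCA (4.50% against 2.30%, 2.45% of all) and CTCGCGAG (3.76% against 1.04%, 1.22% of all) were all more frequent in pairs. The TATA box letters TATAAA ran the other way, in 4.10% against 13.3% (12.7% of all). No 2 of these motifs contain each other, but matches can overlap, as in the run GATGGCGGGCGG between Hadha and Hadhb.

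Among genes with a summit the gaps narrowed for the GC box (71.3% against 62.3%) and stayed wide for CCGGAAG (28.9% against 15.1%) and GATGGCGG (6.99% against 2.84%). TATAAA was in 3.86% against 7.35%.

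Within the pairs, the marked share differed with some motifs. With GGGCGG in either window 96.2% of pairs were marked, and without it 86.5%. With CCGGAAG 97.9% were marked, and without it 92.2%. All 66 pairs with GATGGCGG in either window and all 36 with TGACGTCA were marked, against 93.5% and 93.7% of pairs without them. Pairs with CTCGCGAG were marked in 27 of 32 (84.4%), and those without it in 94.5%. Over all pairs the share was 94.0%. No interval was computed for the shares with a motif, so small counts such as 36 and 32 were not told apart from it. Median scores with and without a motif were close: 230.1 and 222.8 for CCGGAAG, and 225.8 both with and without CCAAT.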

How the data were processed

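Native H3K4me3 ChIP-seq after MNase digestion was made from amygdala nuclei. Per the labels and methods, the authors used Bowtie and the mm10 build, discarded reads without a unique position, and ran MACS2 2.1.0.20140616 with input as control. The deposited WT list gives a summit and a score per peak, which was read as −log10 of the q-value from its range. The header names no unit. The list pools 2 WT mice, so replicates could not be compared. Other genotypes, black-list removal and the spike-in scaling were not analysed here.

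Pairs were taken from GENCODE M21, CpG and motifs from the GRCm38 sequence with pysam 0.24.0, and shares, Wilson and Newcombe intervals with Python 3.11.15, pandas 2.3.3 and numpy 2.4.6. Summits off chromosomes 1 to 19 and X were left out. Scripts were tested on simulated data. No p-value was computed, since regions are not replicates. Members, comparison sets, gene lists and named pairs were chosen with earlier results of these data known. The naming rule took the textbook pairs, the 5 pairs with the highest score, lowest score, most summits and lowest CpG, the 8 CpG-richest unmarked pairs, up to 5 wide pairs with a summit inside both genes, and extremes of each list. Some items that this rule names are not reported here. Other pairs, such as those with even or lopsided scores, those with a summit between the TSSs, those on chromosome X and those without a summit nearby, were chosen after their values were seen.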

Additional observations from a re-analysis of the deposited data

How the results depend on the processing

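The median score of marked pairs stayed between 223.9 and 228.1 under all alternatives run. The share of pairs with a summit was 89.3% when summits scoring under the list's median were dropped, 91.3% over 1232 pairs with any annotated starts head to head, and 82.3% with 500 bp either side. The difference to the other promoters was 45.6 points with the higher summits, 40.6 points with 500 bp either side and 6.80 points after weighting to the CpG content. The share with 2 or more summits was 4.77% with the higher summits, 3.71% with 500 bp either side and 3.84% with summits within 1 kb joined. Pairs scored higher in 64.7% of comparisons with the higher summits. The share of highest summits between the TSSs was 0.464% at distances up to 500 bp. Further alternatives were added after seeing the data, each gene in 1 pair only (713 pairs) and without 17 histone and duplicated-gene pairs. They left the share with a summit at 94.0% and 94.7%. Among the motifs, CCAAT changed direction in the window from 500 before to 100 after the TSS, where the difference between pairs and other genes was −0.53 points. In that window the shares in pairs were 81.5% for GGGCGG, 34.7% for CCGGAAG, 8.26% for GCATGCGC, 10.6% for GATGGCGG and 8.33% for TATAAA, and the other 7 motifs kept their direction. No other result changed direction. No paired analysis was possible because both WT mice share 1 list, and for the same reason none could leave out a mouse. The list gives no depth, so counts behind a score are unknown.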
